A study of Mus musculus with 6 samples.

Results

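Open chromatin that was listed with and without glucocorticoid treatment, but ranked lower with it, was examined in macrophages stimulated with lipopolysaccharide (LPS). The regions are DNase I hotspots that every library of the study listed and whose height ranked lower in each of the 4 libraries with Dex, the glucocorticoid of the study, than in both libraries with LPS alone. To find them, the hotspots of the 6 libraries were merged wherever they overlapped by at least 1 bp, which gave 59069 regions, and the 25091 regions listed in all 6 libraries were kept. Within each library these shared regions were ranked by their maximum tag density, the height of the highest hotspot in the region, on a percentile scale on which 100 is the highest. A region was chosen if the highest of its 4 Dex ranks was below the lower of its 2 LPS ranks and the mean LPS rank exceeded the mean Dex rank by at least 10 percentile points. The rule chose 1717 of the 25091 shared regions (6.84%). They are called weakened regions here, a name for this pattern of ranks. The order of the ranks alone, at any size of difference, was met by 2381 shared regions (9.49%). The reverse rule chose 1638 regions (6.53%), called strengthened regions, which serve as the comparison.

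The cells were primary macrophages grown from the bone marrow of C57BL/6J mice, and all of them received LPS for 8 h. The LPS group received nothing else, the group with Dex before LPS was pre-treated, and the late Dex group received Dex late in the LPS treatment. Each group has 2 libraries. The labels give no dose and no interval for Dex, and they do not say whether replicate libraries are from different mice or dishes, so the spread between them may be technical. Cells without LPS were not analysed here, so whether a region was opened by LPS cannot be read from these data. The positions are in mm9 and were not matched to genes, so regions are named by position and the labelled cell type was not checked against marker genes.

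In nuclei, DNase I cuts where nucleosomes are displaced, which happens at promoters and enhancers occupied by transcription factors. In macrophages, lineage factors such as PU.1 hold many enhancers open, and LPS, sensed through Toll-like receptor 4, brings NF-κB and AP-1 to them and to further sites. The glucocorticoid receptor is a ligand-activated transcription factor. It binds DNA and induces anti-inflammatory genes, and it also represses many inflammatory genes that depend on NF-κB and AP-1. A lower DNase signal at a site that is still listed is a change in degree, which a comparison of present and absent hotspots does not show.

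The lists held 29347 to 51834 hotspots. Both LPS lists (48084 and 51834) were longer than every Dex list (29347 to 44686). The part of list length in the differences between LPS and Dex was not tested. The shortest list was replicate 1 of late Dex, and without that library 29100 regions would have been shared. Maximum densities were whole multiples of a step of 0.334 to 0.443, depending on the library. Weakened regions had a median height of 56 and 57 steps in the LPS libraries and of 29 to 38 steps in the Dex libraries. No source says whether a step is 1 tag, so no counting error is given. Ranks over the same 25091 regions do not depend on the scale of a list, and the Spearman correlation of 2 libraries over these regions lay between 0.847 and 0.941.

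Weakened regions were of middling strength with LPS alone and moved into the lower part of the range with Dex. Their median rank was 49.1 and 53.4 in LPS replicates 1 and 2. It was 27.9 and 30.4 with Dex before LPS, and 30.3 and 32.8 with late Dex. These ranks chose the regions, so the gap is a description and not a test. The LPS replicates differed too. Replicate 2 ranked above replicate 1 in 1163 weakened regions (67.7%), against 51.7% of all shared regions. Without LPS replicate 1 the rule, now resting on 1 LPS library, chose 3883 of 25280 shared regions (15.4%). Without LPS replicate 2 it chose 2626 of 25367 (10.4%). The reverse rule rose as well, to 3782 and 2681 regions. The part of either LPS library in the result was not tested. Over all shared regions the median difference between LPS and Dex was 0.08 points, against 17.6 points in the weakened regions. The rest of the shared regions, neither weakened nor strengthened, had medians of 52.3 to 53.4 in all 6 libraries.

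**Figure D1:**
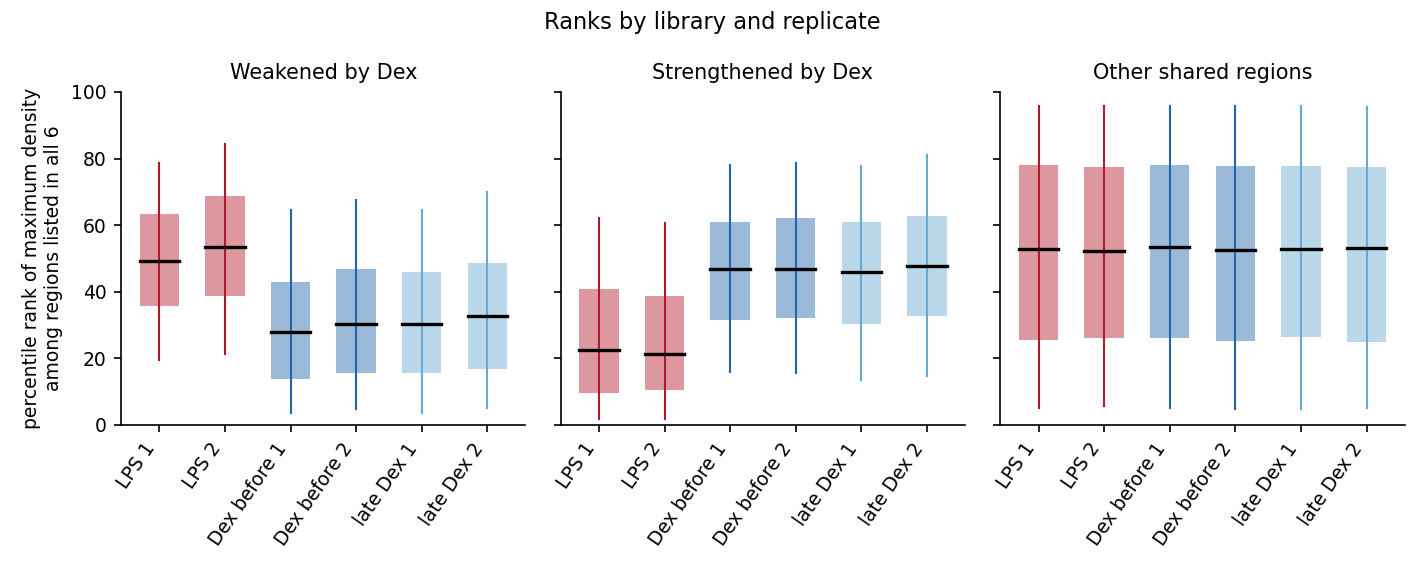
Percentile rank of maximum tag density (vertical axis) in each of the 6 libraries for weakened, strengthened and other shared regions; boxes span the quartiles, black lines mark medians, and whiskers run from the 5th to the 95th percentile of regions. In the left panel the LPS medians are 49.1 and 53.4 and the Dex medians lie between 27.9 and 32.8, a gap that the choice of regions sets.

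On the deposited density scale the difference was moderate. The mean maximum density with LPS was 1.41 times the mean with Dex in the median weakened region, with quartiles of 1.31 and 1.56, where the median over all shared regions was 0.988. A fold above 2 was reached by 54 of the 1717 regions, and the highest was 3.89. In 1468 weakened regions (85.5%) the densities themselves did not overlap, every Dex value lying below both LPS values, where 9.11% of all shared regions did so. The other 249 were separated in rank only. The ranks that chose the regions come from these same densities, so the fold and the separation are descriptions and not tests. The hotspots were also shorter. The median length listed in a weakened region was 965 and 1018 bp with LPS, 692 and 844 bp with Dex before LPS, and 632 and 833 bp with late Dex. Hotspots of the Dex libraries were shorter over all shared regions too, at 994 and 1035 bp with LPS and 771 to 975 bp with Dex.

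The weakened regions came from the lower and middle part of the range. Of the shared regions with a mean rank over the 6 libraries of up to 25, 7.94% were weakened, of those from 25 to 50 11.0%, of those from 50 to 75 7.08%, and of the highest class 0.681%. The shares of strengthened regions were 6.68%, 10.9%, 7.08% and 0.83%, also largest from 25 to 50 and smallest in the highest class. A region near the top of the scale has little room to lose 10 points in rank, so these shares partly follow from the rule. With LPS alone, 94 weakened regions had a mean rank of at least 80, and with Dex 5 did. Some stood close to the end of a Dex list. By z-score, the hotspot caller's measure of enrichment, 246 of the 1717 (14.3%) fell into the weakest 10% of at least 1 Dex list, against 8.2% of all shared regions. The rule asks for lower ranks with Dex, so this share partly follows from it too.

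Differences of 20 points or more were found in 644 weakened regions, of 30 or more in 158, of 40 or more in 25, and of 50 or more in 3. The strengthened regions, nearly as many in all, reached further. There 625, 222, 93 and 45 passed the same sizes, and 15 passed 60 points, against 1 weakened region. Only regions listed in all 6 libraries could enter either class. Both LPS libraries and no Dex library listed 3062 regions, while all 4 Dex libraries and no LPS library listed 230. The part of this requirement in the reach of either class was not tested. The regions next to the threshold show how small the smallest changes are. The weakened region nearest to it, on chromosome 16 at 57301562 to 57302376, had maximum densities of 13.7 and 13.5 with LPS and of 10.0 to 12.8 with Dex, a difference of 10.02 points. Next above it was a region of chromosome 4 at 12013878 to 12015610, with 35.1 in both LPS libraries and 25.4 to 32.9 with Dex (10.02 points). Just outside lay chromosome 1 at 165894098 to 165894899, with 14.0 and 12.8 with LPS and 9.49 to 12.8 with Dex (9.99 points), and chromosome 13 at 31598247 to 31599250, with 12.0 and 11.1 with LPS and 8.65 to 10.6 with Dex (9.97 points).

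The largest difference was on chromosome 3 at 138183704 to 138185187, a region of 1483 bp. Its maximum density was 40.5 and 41.0 with LPS, 10.3 and 8.73 with Dex before LPS, and 9.60 and 13.3 with late Dex. The LPS replicates nearly coincided, and all 4 Dex values were far below them. The mean rank was 84.0 with LPS and 16.7 with Dex. The second, on chromosome 10 at 57538454 to 57539638, had 36.1 and 34.0 with LPS, 8.24 and 9.11 with Dex before LPS, and 13.6 and 19.0 with late Dex. The third, on chromosome 2 at 122490910 to 122492812, had 52.2 and 38.5 with LPS, 9.47 and 9.49 with Dex before LPS, and 16.4 and 24.4 with late Dex. On chromosomes 10 and 2 both timings were below LPS, and late Dex stood between the other groups, while on chromosome 3 the timings overlapped.

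The fourth region, on chromosome 14 at 106150931 to 106151743, went from 24.1 and 22.2 with LPS to 7.41 and 6.07 with Dex before LPS and 10.4 and 13.3 with late Dex. The fifth, on chromosome 1 at 151862016 to 151863235, went from 23.4 and 19.4 to 4.94 and 5.32 with Dex before LPS, which put it among the lowest 0.63% of shared regions in both of these libraries. With late Dex it had 8.80 and 13.7. The sixth, on chromosome 15 at 27853169 to 27854161, had 23.7 and 20.8 with LPS, 9.47 and 10.3 with Dex before LPS, and 7.60 and 11.5 with late Dex, so that here the timings overlapped.

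The 20 regions with the largest differences came from 11 chromosomes. They measured 666 to 2067 bp and differed by at least 40.4 points. Their LPS densities ran from 16.1 to 52.2 and their Dex densities from 4.94 to 24.4, and within each of the 20 no Dex value reached an LPS value. The fold of LPS over Dex was 2.03 to 3.89. Most lost their place in the upper part of the range in every Dex library. In 2 of the 20 a Dex library still ranked the region above 50, namely the chromosome 2 region above (63.7 in replicate 2 of late Dex) and chromosome 4 at 32450059 to 32451100 (52.98 in the same library).

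**Figure D2:**
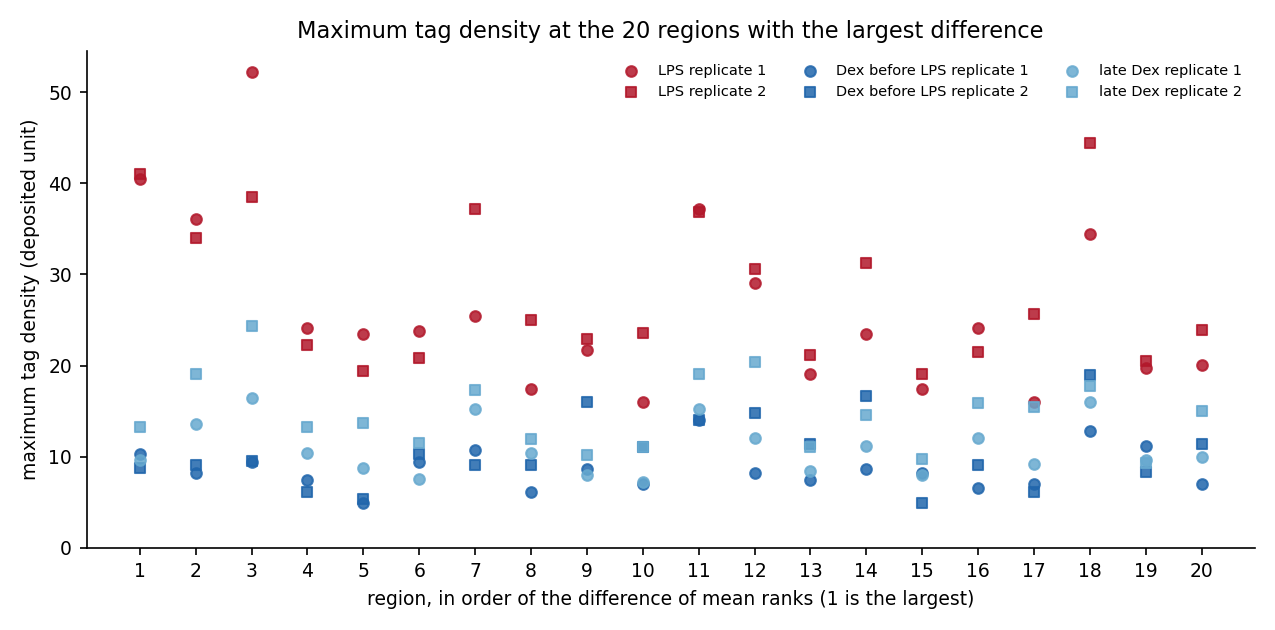
Maximum tag density in the deposited unit (vertical axis) at the 20 regions with the largest difference of mean ranks, with a point for each library; circles are replicate 1 and squares replicate 2. At every one of the 20 regions both red points (LPS) lie above all blue points (Dex), and the regions were chosen for this gap.

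The strongest weakened regions changed by less in rank, since they stayed among the high hotspots. The region with the highest mean LPS rank (95.8) was on chromosome 5 at 140201939 to 140203181. Its maximum densities were 75.9 and 67.7 with LPS, 38.3 and 45.2 with Dex before LPS, and 40.8 and 52.3 with late Dex, a fold of 1.63. Chromosome 17 at 47357787 to 47359096 had 69.9 and 62.1 with LPS, 34.2 and 42.1 with Dex before LPS, and 30.4 and 46.1 with late Dex (1.73-fold). In both regions replicate 2 ranked above replicate 1 in each of the 3 groups. The other strong members of the 5 with the highest LPS rank had folds of 1.75 on chromosome 16 (91851339 to 91852742), of 1.66 on chromosome 4 (119648878 to 119651425) and of 1.76 on chromosome 14 (64066327 to 64067281). They differed by 14.5, 14.1 and 16.9 points.

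Whether a region chosen as weakened is lower with Dex in libraries that had no part in the choice was read from the replicates. The rule was applied to the 3 libraries numbered 1 alone and the result read in the 3 libraries numbered 2, and the reverse. Being listed in all 6 libraries was required in both. From the libraries numbered 1, 3655 regions were chosen. In the libraries numbered 2, 2267 of them (62.0%, 95% Wilson interval 60.4 to 63.6) had LPS above both Dex libraries, where 35.8% of all shared regions did. LPS was below both Dex libraries in 13.4% of the chosen regions. The median held-out difference was 8.23 points, with quartiles of 0.68 and 17.3, and over all shared regions it was 0.05 points. From the libraries numbered 2, 3914 regions were chosen, and in the libraries numbered 1 2303 of them (58.8%, 57.3 to 60.4) had LPS above both Dex libraries, against 36.4% of all shared regions. The median difference was 6.86 points. The held-out set has 1 library per group, so there is no test, and the intervals cover the sampling of regions only. They treat regions as independent. Neighbouring regions tended to differ in the same direction, as given below, so the intervals may be too narrow.

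The full rule held less often. In 43.1% of the regions chosen in replicate 1, LPS was above both Dex libraries and at least 10 points above their mean. The same was seen in 40.2% of those chosen in replicate 2. Over all shared regions the shares were 15.6% and 14.6% in the same libraries. Most regions that 1 replicate number picks thus miss the full rule in the other. The share rose with the size of the difference. Of regions chosen at 10 to 20 points in replicate 1, 57.1% had LPS above both Dex libraries in replicate 2. At 20 to 30 points it was 71.2%, at 30 to 40 points 85.4%, and at 40 points or more 34 of 37 (91.9%, 78.7 to 97.2). In the other direction the shares were 53.1%, 66.2%, 87.4% and 51 of 54 (94.4%, 84.9 to 98.1). Held-out differences were smaller than those that chose the regions. At 40 points or more the held-out medians were 28.8 and 28.0 points.

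**Figure D3:**
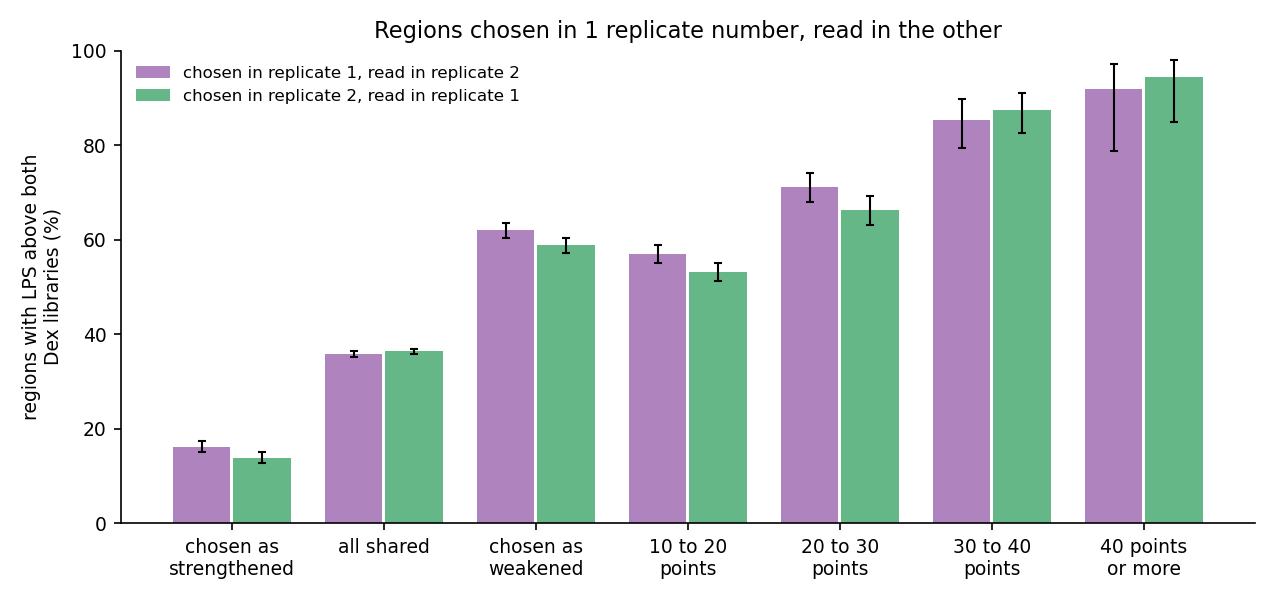
Percentage of regions in which the LPS library ranked above both Dex libraries (vertical axis) in the replicate number not used to choose them. Bars are sets of regions, the 4 rightmost being the regions chosen as weakened split by the size of the difference. Error bars are 95% Wilson intervals that treat regions as independent. The share is 35.8% and 36.4% over all shared regions, 62.0% and 58.8% for regions chosen as weakened, and 91.9% and 94.4% for those chosen at 40 points or more.

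Both Dex groups showed the lower level in the held-out libraries. In the regions chosen in replicate 1, the median rank in the libraries numbered 2 was 47.7 with LPS, 35.2 with Dex before LPS and 38.4 with late Dex. In those chosen in replicate 2, the median in the libraries numbered 1 was 42.6 with LPS, 33.3 with Dex before LPS and 34.0 with late Dex. The median difference from LPS was 9.03 and 7.04 points for Dex before LPS, and 7.29 and 6.60 points for late Dex. Both Dex groups are compared with the same LPS libraries, so these values are not independent of each other.

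The timing of Dex was no part of the rule, which used the 4 Dex ranks together, so the groups with Dex before LPS and with late Dex could be compared. Region by region, no difference passed the main test, which did not use the replicate numbers. With limma on the ranks of all 25091 shared regions and Benjamini-Hochberg adjustment, 0 regions had an adjusted p under 0.05 (0%), and 0 of the 1717 weakened regions did. At an unadjusted p under 0.05, 478 shared regions were lower with Dex before LPS (1.91%) and 379 higher (1.51%). Among the weakened regions, 51 were lower and 17 higher. Libraries of the 2 timings with the same number correlated at 0.941 and 0.928, above the replicates of Dex before LPS (0.915) and of late Dex (0.897). With a replicate block the fit again called 0 regions on ranks. On log2 densities centred in each library the blocked fit called 40 (0.159%), 9 of them weakened. That setting was added after the data were seen. Summed over weakened regions, Dex before LPS was the lower group slightly more often. In 390 of them (22.7%) both libraries with Dex before LPS ranked below both late Dex libraries, where 13.6% of all shared regions did. The reverse was seen in 218 (12.7%), where the share over all shared regions was 13.3%.

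The median of Dex before LPS minus late Dex over the weakened regions was -1.33 points, with quartiles of -6.75 and 3.71, and 0.02 points over all shared regions. It was -1.12 points between the replicates numbered 1 and -1.36 between those numbered 2. Single libraries moved it, to -0.20 points without replicate 1 of Dex before LPS, to -0.33 without replicate 2 of late Dex, to -2.46 without replicate 2 of Dex before LPS and to -2.80 without replicate 1 of late Dex. It stayed negative in each of these 4. The difference was wider where the loss relative to LPS was larger. That loss is computed from the same 4 Dex ranks, so this is a description and not a test. Dex before LPS had the lower mean in 586 of the 1073 regions weakened by 10 to 20 points (54.6%), in 294 of 486 at 20 to 30 points (60.5%), in 83 of 133 at 30 to 40 points (62.4%) and in 21 of 25 at 40 points or more (84%). The medians were -0.66, -2.40, -3.22 and -7.07 points. Over all shared regions Dex before LPS had the lower mean in 49.7%. Strengthened regions of the same sizes had medians of 0.34, -1.01, -0.63 and -1.75 points. In them Dex before LPS had the lower mean in 49.2%, 54.3%, 52.7% and 58.1%.

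**Figure D4:**
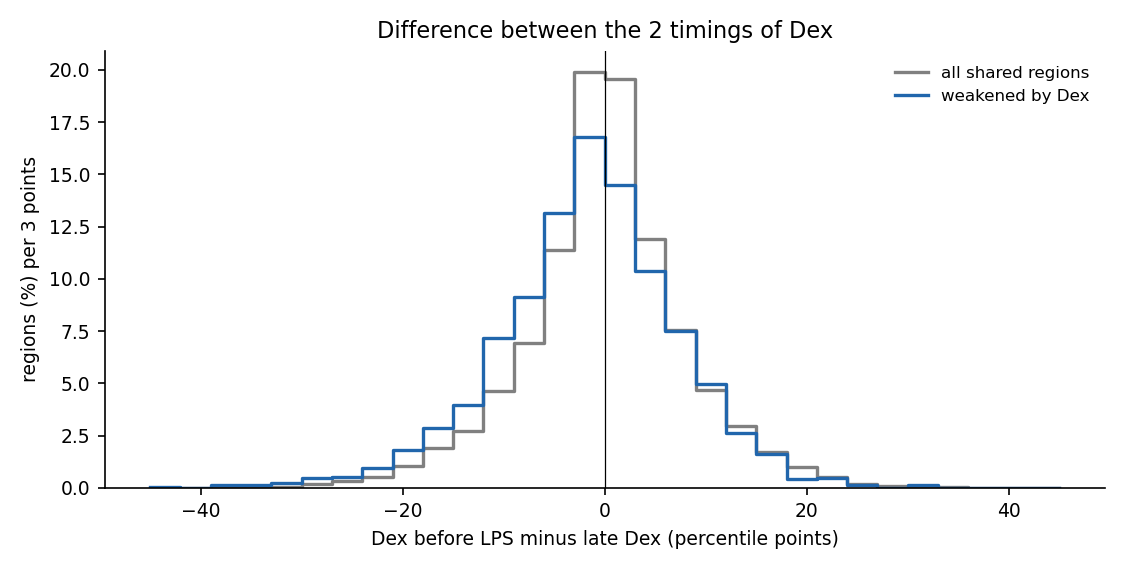
Distribution of the difference between Dex before LPS and late Dex (horizontal axis, percentile points, mean of 2 libraries each) as the percentage of regions in bins of 3 points, for weakened and for all shared regions. The curve of the weakened regions is shifted to the left of 0, with a median of -1.33 points against 0.02.

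The weakened region with the lowest value for Dex before LPS relative to late Dex was the chromosome 2 region at 122490910 described above. Its ranks were 15.7 and 9.49 with Dex before LPS and 45.9 and 63.7 with late Dex, a difference of -42.2 ± 9.52 points (SE, n = 2 each; limma adjusted p = 1). Chromosome 7 at 82811527 to 82812979 followed, with maximum densities of 33.4 and 39.6 with LPS, 12.4 and 12.5 with Dex before LPS, and 20.4 and 29.2 with late Dex (-38.9 ± 9.3 points). Chromosome 16 at 55636314 to 55637799 had 39.8 and 48.6 with LPS, 8.65 and 18.6 with Dex before LPS, and 19.2 and 31.9 with late Dex (-36.1 ± 12.8 points). At each of the 3 the timings did not overlap, and late Dex lay between LPS and Dex before LPS.

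The largest differences in the other direction were at 3 regions named by the same rule. Chromosome 6 at 38923579 to 38925441 had maximum densities of 24.4 and 23.6 with LPS, 20.2 and 23.2 with Dex before LPS, and 10.8 and 14.2 with late Dex. Dex before LPS was there close to LPS, and late Dex was lower by 31.9 ± 8.67 points (SE, n = 2 each; limma adjusted p = 1). Chromosome 17 at 48402875 to 48403831 had 16.7 and 20.5 with LPS, 15.6 and 16.7 with Dex before LPS, and 5.20 and 12.4 with late Dex. Chromosome 8 at 117831037 to 117832277 had 21.7 and 29.2 with LPS, 18.9 and 17.8 with Dex before LPS, and 7.20 and 16.4 with late Dex. On chromosome 8, replicate 1 of late Dex alone was far below the other Dex libraries. On chromosome 17 both late Dex libraries ranked well below both libraries with Dex before LPS, at 0.62 and 20.7 against 42.8 and 39.8.

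Position along the chromosome had no part in the rule. Another weakened region lay within 100 kb of 711 of the 1717 (41.4%), where 26.2% of all shared regions had one that near, and within 10 kb of 209 (12.2%, against 5.27%). Strengthened regions lay within 10 kb of 30 weakened regions (1.75%), against 5.79% of all shared regions. The regions listed in both LPS libraries and in no Dex library, 3062 in all, lay within 10 kb of 246 weakened regions (14.3%, against 7.6%). The 230 regions that all 4 Dex libraries and no LPS library listed lay within 10 kb of 3 weakened regions (0.175%, against 0.697%). The share near regions listed only with LPS was thus above, and the share near regions listed only with Dex below, that of all shared regions. Both LPS lists were longer than every Dex list, so absence from a list does not show that a region was lost. The classes of regions come from the same 6 libraries, so no p-value is given.

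The nearest other shared region, whatever its class, had the same sign more often than not. It was higher with LPS than with Dex for 65.7% of weakened regions and for 51.0% of all shared regions. Its median difference fell with distance, from 4.82 points for gaps under 2 kb to 3.06 at 2 to 10 kb, 2.21 at 10 to 30 kb, 1.10 at 30 to 100 kb and 0.68 beyond. Over all shared regions the same medians lay between -0.04 and 0.30 points. The nearest neighbours of strengthened regions had the opposite sign, with medians from -6.21 points under 2 kb to -0.31 beyond 100 kb. These differences were small beside the 17.6 points of the weakened regions themselves. A neighbour was itself weakened for 13.5% of weakened regions, against 6.95% of all shared regions, and strengthened for 2.85%, against 6.91%.

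**Figure D5:**
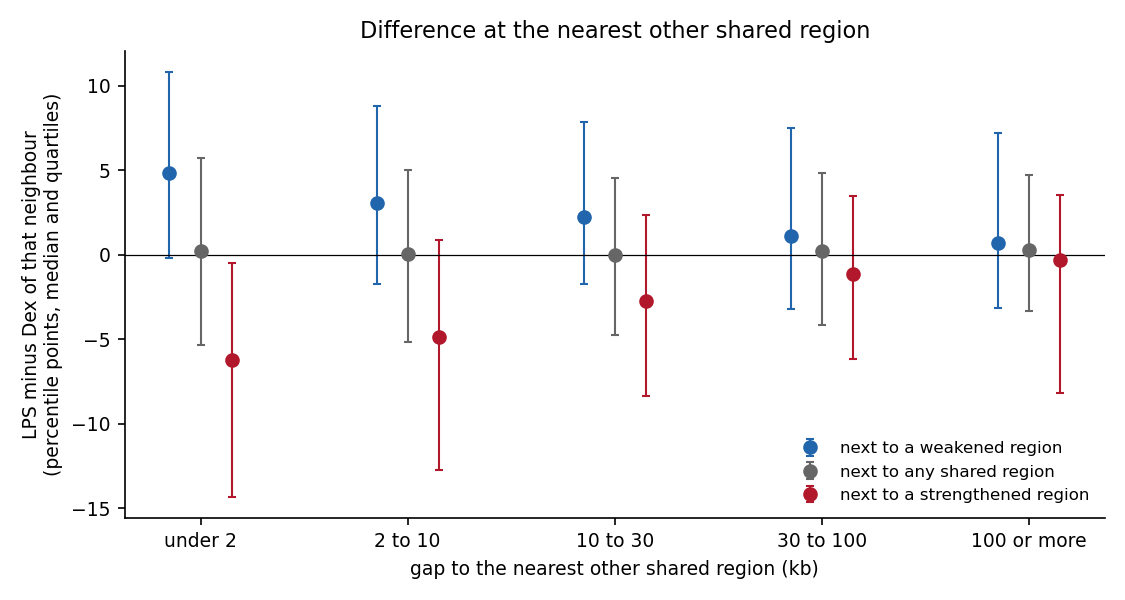
Difference between LPS and Dex (vertical axis, percentile points; points are medians and bars span the quartiles) at the nearest other shared region, by the gap to it in kb (horizontal axis), for neighbours of weakened, strengthened and all shared regions. The medians next to weakened regions fall from 4.82 points under 2 kb to 0.68 beyond 100 kb, those next to strengthened regions are negative, and those next to any shared region stay near 0.

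The 711 regions formed 283 runs with gaps of at most 100 kb. Of these runs 198 were pairs, 49 held 3 regions, and 36 held 4 or more. The longest held 9 weakened regions on chromosome 1 between 137412771 and 137708467. Their differences were 10.4 to 34.7 points. The widest was at 137529873 to 137531075, with maximum densities of 19.4 and 17.4 with LPS, 8.65 and 8.73 with Dex before LPS, and 11.2 and 10.2 with late Dex. The run was not uniform. Of its 16 shared regions 11 were higher with LPS on average, and 5 were higher with Dex, by up to 14.0 points at 137662490 to 137663380.

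The next run was denser, with 8 weakened regions in 123.3 kb of chromosome 7 between 63101128 and 63224405. All 12 shared regions of that span were higher with LPS. Its widest difference was 30.5 points at 63114243 to 63115525, where the densities were 17.1 and 19.1 with LPS, 9.06 and 14.0 with Dex before LPS, and 8.00 and 12.0 with late Dex. A run of 6 on chromosome 1 between 151677951 and 151947703 contained the fifth region above and a high one at 151946394 to 151947703, which had 55.9 and 42.0 with LPS, 22.6 and 17.1 with Dex before LPS, and 28.4 and 26.1 with late Dex. On chromosome 15 all 6 shared regions between 67730353 and 67898738 were weakened, by 10.1 to 42.3 points. The first of the 6, at 67730353 to 67731755, had 28.4 and 38.5 with LPS, 14.8 and 13.7 with Dex before LPS, and 15.2 and 16.8 with late Dex. Runs other than the longest were picked after their values were seen.

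The widths of weakened and other regions were close. The median of the weakened regions was 1065 bp (quartiles 905 and 1398), between the 1014 bp of the strengthened and the 1119 bp of all shared regions. Regions over 3 kb made up 1.86% of them and 2.46% of all shared regions. In 1463 (85.2%) every library listed a single hotspot, against 85.8% of all shared regions, so few of the differences concern 1 hotspot among several in a region.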

How the data were processed

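DNase-seq libraries of 51 bp single-end reads were made from 6 samples in 3 groups. Per the submitters' processing notes, CASAVA was used and positions are in mm9. Which aligner, hotspot caller and threshold were used is not given in these sources. The authors called hotspots in each library. The deposited signal values are maximum and average tag densities, with a scaling that is not stated. Each hotspot also has a z-score, the deposited score. A deposited p-value was not used. Hotspots were merged, and maximum densities ranked within each library with ties at their average rank, in Python 3.11.15. Timing was tested with limma 3.58.1 (eBayes with trend, 2-sided, all groups in 1 fit) on the ranks. The fit was also run on simulated ranks with the same noise in every region and no effect of replicate number. These settings differ from the data, so that run says little about the timing result. The regions named are the 20 with the largest difference, the 5 with the highest LPS rank, those next to the threshold, the 3 at either end of the timing difference, and the longest run. The choice of regions and lists was made with earlier results of these data known. Motifs and genes were left out, since no genome of this build was used here. Alternatives were other measures, thresholds, merging, overlap and filters, centred log2 densities computed from the deposited signal, a replicate block, and each library left out. Depth in tags is unknown.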

Additional observations from a re-analysis of the deposited data

How the results depend on the processing

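The number of weakened regions (1717) stayed within 1.5 times with average density (1651), z-score (1665), 5 points (2181), wider merging (1613) or a cover of 50% (1226). It was 1135 at 15 points, 644 in the stronger 50% of each list, and 856 with centred log2 densities and a difference of 0.5 (added after the data were seen). Shared regions numbered 13435 in the stronger 50% and 20481 at a cover of 50%, so the weakened shares were 4.79% and 5.99%. Leaving out a library loosens the rule, and gave 2016 to 3883 regions, with 3883 without LPS replicate 1 and 2626 without LPS replicate 2. Without these LPS libraries the reverse rule gave 3782 and 2681. The held-out share (62.0% and 58.8%) was 59.8% with z-scores for regions chosen in replicate 1, 55.9% and 53.7% at 5 points, and 68.6% and 65.6% at 15 points. With average density 1277 of the 1717 regions were chosen again, and with z-scores 1068. In the stronger 50% of each list 405 of them were chosen again, and with centred log2 densities 802. The timing difference over weakened regions was -0.072 on the centred log2 scale, and ran from -2.80 to -0.20 points with each Dex library left out. Of 401 recomputed differences at the 41 named regions, 11 moved by more than the spread between libraries, such as chromosome 4 at 12013878, from 10.02 to 3.03 points with z-scores.

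Replicate numbers are not stated to pair libraries. The deviations of the replicates correlated at 0.382 to 0.435 between groups. With the replicate block, the timing comparison still called 0 regions on ranks. On centred log2 densities with the block, a setting added after the data were seen, it called 40 regions (0.159%), 9 of them weakened, of which 8 were lower with Dex before LPS. They include the 3 regions named on chromosomes 2, 7 and 16 as lowest with Dex before LPS relative to late Dex. Without the block the log2 densities called 0, as did the filter at a mean rank of 25 and each library left out. The share of regions holding a motif was not run, since no genome of this build was used here.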

Other observations

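Weakened regions were found on every chromosome with more than 50 shared regions, at shares between 3.81% and 9.10% of its shared regions. The share was highest on chromosome 13 (105 of 1154) and lowest on chromosome X (26 of 682), where strengthened regions were also at their lowest share (27 of 682, 3.96%). On chromosome 17, 53 of 1190 shared regions (4.45%) were weakened and 89 (7.48%) strengthened, and on chromosome 16, 76 of 923 (8.23%) were weakened and 52 (5.63%) strengthened. Of the 50 shared regions on chromosome Y, 0 were in either class. These shares were not tested.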
